A study of Homo sapiens with 2 samples.

Results

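F-box proteins are the substrate receptors of SCF ubiquitin ligases, and their transcripts were followed here in 786-O cells with and without glucose. The set was defined by gene symbol, and was chosen with earlier results of these data known. It held every FBXL, FBXO and FBXW gene with a number in its name, the F-box genes BTRC, SKP2 and CCNF, and the ligase subunits SKP1, CUL1 and RBX1. This gave 70 of the 22595 gene symbols in the tables, made up of 18 FBXL, 37 FBXO and 9 FBXW genes and the 6 others. 786-O is an established line of human clear cell renal carcinoma. 1 culture was kept at 25 mM glucose and 1 at 0 mM, total RNA was taken with Trizol, and each culture gave 1 RNA-seq library. The sources used here do not give the time without glucose or the meaning of the sample descriptions, LucF for the culture with glucose and LucG for the other. A second difference between the cultures, if these descriptions mark one, cannot be told apart from glucose in any ratio given here. With 1 library per group there is no replicate check and no p-value, and higher and lower describe the pair of libraries.

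In an SCF ligase the cullin CUL1 is a scaffold. It holds the RING protein RBX1, which recruits the ubiquitin-charged E2 enzyme, at an end and the adaptor SKP1 at the other end. SKP1 binds the F-box motif of an interchangeable receptor, and the rest of that receptor picks the substrate, often once the substrate is phosphorylated. The letter after FBX names that part: L for leucine-rich repeats, W for WD40 repeats and O for other or no known domains. Several receptors time the cell cycle, others bind sugar chains of glycoproteins or sense iron.

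Summed counts came to 27317598 with glucose and 31345853 without. Genes of snoRNAs, scaRNAs and microRNAs took 5.82% and 7.98% of them. Of the renal carcinoma markers, all 8 were measured, but at unlike levels. PAX8 stood at 243 and 233 CPM (counts per 1000000 of the scaled library) with and without glucose, and PAX2 at only 2.39 and 1.21 CPM. CDH6 (191 and 8.40 CPM) and CA12 (38.4 and 16.2 CPM) were lower and EPAS1 (134 and 424 CPM) higher without glucose. Among markers of other cell types, the leukocyte genes PTPRC and CD3E and 3 of 4 endothelial genes had fewer than 10 counts in each library, and the erythroid genes HBA1 and HBB had 0 or 1. The 5 leukocyte markers summed to 263 and 347 CPM, mostly from LCP1, the 4 endothelial markers to 1.72 and 0.392 CPM, and the 5 fibroblast markers to 19.1 and 9.35 CPM. Genes with 20 or more counts, summed over the pair of libraries, are termed measured. Such a gene was called higher or lower without glucose when the exact 95% Clopper-Pearson interval of its ratio, which covers counting error only, lay wholly beyond 2-fold. By this rule, the leukocyte marker CD68 was higher without glucose (297 and 786 counts, log2 ratio 1.27) and the fibroblast marker LUM lower (295 and 100 counts, -1.69). In bulk RNA, a change in the mix of cells, such as the share of cycling cells, and a change per cell cannot be told apart.

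Of the 70 genes, 62 were measured. Of these, 5 were lower without glucose (CCNF, SKP2, FBXO43, FBXL7 and FBXO5), 2 were higher (FBXW10 and FBXL6) and 55 passed neither bound. The lower members came to 8.06%, where 6.05% of all 14240 measured genes were lower, and the higher members to 3.23%, where 3.91% of all were higher, so both shares were near the background. The median log2 ratio of the members was 0.09 with quartiles at -0.30 and 0.34, against 0.03 with quartiles at -0.44 and 0.43 for all measured genes. A log2 ratio between -0.5 and 0.5 was found for 44 of the 62 members (71.0%) and for 56.0% of all measured genes. With smaller bounds, 5 members were higher and 9 lower beyond 1.5-fold (10.6% and 12.2% of all measured genes), and 27 were higher and 17 lower with an interval that left out a ratio of 1 (38.2% and 35.9% of all). The summed level of the 70 genes was 2388 CPM with glucose and 2405 CPM in the starved culture.

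**Figure D1:**
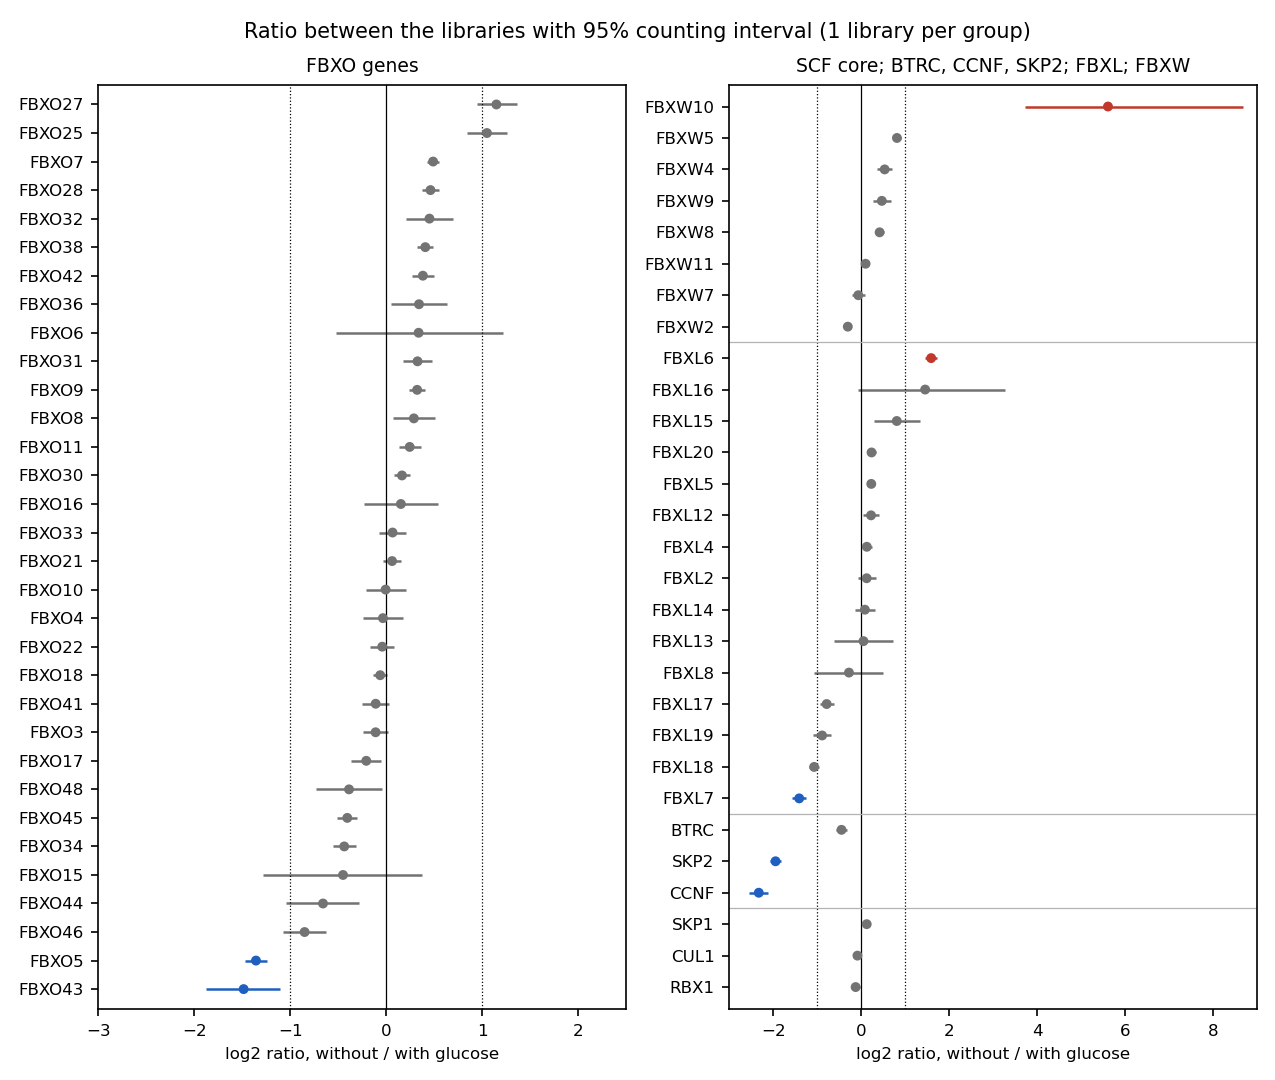
Log2 ratio without glucose against with glucose for 61 of the 62 measured genes, FBXO genes on the left and the SCF core, BTRC, CCNF, SKP2, FBXL and FBXW genes on the right (points, with 95% counting intervals as lines; dotted lines, 2-fold; red higher and blue lower by the size rule). Most points lie between the dotted lines, CCNF (-2.33) and SKP2 (-1.94) are the lowest, and FBXW10 (5.61) stands apart with a wide interval.

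CCNF and FBXO5, both lower without glucose, were also the only measured members, of those with a listed promoter, in which the stretch before a listed gene start held letters of both a CHR and a CCAAT box, elements known from promoters of G2 and M phase genes. Their sequences are shown for that reason. They come from RefSeq on GRCh38.p14, run 5′ to 3′ on the gene's own strand and leave out bases within annotated exons. Capitals mark TTTGAA, the CHR letters, and CCAAT, the core of the CCAAT box, each on either strand, so that TTCAAA and ATTGG are the same letters read from the other strand.
CCNF, chr16:2429197-2429393, plus strand: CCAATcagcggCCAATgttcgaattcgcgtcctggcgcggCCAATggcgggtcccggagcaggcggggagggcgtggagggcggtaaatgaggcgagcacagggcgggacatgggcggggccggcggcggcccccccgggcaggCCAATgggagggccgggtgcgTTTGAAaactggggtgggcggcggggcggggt
FBXO5, chr6:152983042-152983233, minus strand: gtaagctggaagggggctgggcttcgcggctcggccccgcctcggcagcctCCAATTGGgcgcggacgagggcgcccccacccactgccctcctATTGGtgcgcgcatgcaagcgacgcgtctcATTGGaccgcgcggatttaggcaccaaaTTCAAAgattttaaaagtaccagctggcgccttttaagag
CCNF held 4 CCAAT matches, the nearest beginning 106 bases before the gene start, and a CHR match beginning 85 bases before it. FBXO5 held 4 CCAAT matches as well, of which a pair overlaps on opposite strands as CCAATTGG, and a CHR match beginning 40 bases before the start shown, which is the more downstream of its 2 listed starts. The other FBXO5 window, like those of SKP2 and FBXL7, held neither element. No window was listed for FBXO43.

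Promoter windows of 250 bases were listed for 54 of the 70 genes, 47 of them measured. TTTGAA was found before at least 1 listed start in 6 of these 47 and in 16.1% of all 27305 genes of the table, and CCAAT in 16 of the 47 and in 37.0% of all genes. Both together in 1 window were found in 2 of the 47, CCNF and FBXO5, and in 5.79% of all genes. FBXO11 (log2 ratio 0.24) and FBXO18 (-0.06), which passed neither bound, also held the letters of both elements, but before different listed starts. The pairing in 1 window was looked at after the values of these genes were known, and a match of letters is not evidence that a factor binds there. Letters of the elements named E2F, E-box, ERSE and CARE were searched as well. They were found in 0 of the 4 lower members with a window. Among the 47, E2F letters were found in 7 (6.66% of all genes) and E-box letters in 6 (7.73%). ERSE and CARE letters were found in 0 of the 47 (0.0916% and 3.89% of all genes).

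Receptors of the cell cycle held 4 of the 5 lower members. Of 9 listed and measured genes, 4 were lower, 0 were higher and 5 passed neither bound, with a median log2 ratio of -0.45. Of all measured genes, 6.05% were lower and 3.91% higher. The list was drawn up with earlier results of these data known, so this count is not a test of it. All 7 proliferation markers were lower as well, among them MKI67 (639 and 115 CPM) and CCNA2 (202 and 42.3 CPM), and their part in the receptors' values was not tested.

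CCNF encodes cyclin F, the founding F-box protein, which marks the ribonucleotide reductase subunit RRM2 and the centriole protein CP110 for degradation in G2. It had 1032 counts (36.9 CPM) with glucose and 225 counts (7.35 CPM) without, 5.02-fold lower (interval 4.34 to 5.82). The number of its 17 exons with more than 10 reads was 16 with glucose and 4 without. This number depends on the total count of the gene, and a change in the exons used was not tested. Its gene model covers bases 2479395 to 2508859 of chromosome 16 (hg19, plus strand). SKP2, the receptor for the CDK inhibitor p27, had 2739 counts (97.9 CPM) with glucose and 778 (25.4 CPM) without, 3.85-fold lower (interval 3.55 to 4.17). All 11 of its exons had more than 10 reads in both libraries, and the gene model covers bases 36152189 to 36184147 of chromosome 5 (plus strand).

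FBXO5 and FBXO43 encode EMI1 and EMI2, which inhibit the anaphase-promoting complex, EMI1 from S phase to early mitosis and EMI2 in meiosis. FBXO5 had 1948 counts (69.6 CPM) with glucose and 831 (27.2 CPM) without, 2.56-fold lower (interval 2.36 to 2.78). FBXO43 was the less abundant of the pair, with 205 counts (7.33 CPM) and 80 counts (2.61 CPM), 2.80-fold lower (interval 2.15 to 3.68). Both are minus-strand genes in hg19, FBXO5 at bases 153291658 to 153304740 of chromosome 6 and FBXO43 at bases 101145588 to 101158099 of chromosome 8. Of 16 measured genes of the anaphase-promoting complex and its activators, the median was -0.13 with 2 lower and 0 higher. Of all measured genes, 6.05% were lower and 3.91% higher. The list was drawn up with earlier results of these data known, so this count is not a test of it. The lower ones were the activator CDC20 (158 and 54.7 CPM) and the E2 enzyme UBE2C (70.7 and 25.8 CPM).

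The other listed receptors of the cell cycle lay within 2-fold. FBXW7, which recognises cyclin E and MYC proteins once they are phosphorylated, had 707 counts (25.3 CPM) with glucose and 740 (24.2 CPM) without (-0.06 on the log2 scale). BTRC and FBXW11 encode the paired receptors beta-TrCP1 and beta-TrCP2, which act on beta-catenin and on the NF-kB inhibitor made from NFKBIA. BTRC had 1112 and 893 counts (39.7 and 29.2 CPM, -0.45, interval -0.57 to -0.32). FBXW11 had 2495 and 2928 counts (89.2 and 95.7 CPM, 0.10, interval 0.02 to 0.18). With TMM scaling the intervals lay on opposite sides of 0, that of FBXW11 only narrowly. The FBXW11 ratio was 0.03 with scaling by total counts, 0.07 with upper-quartile scaling and 0.12 with DESeq2 size factors, so its side of 0 depends on the scaling. FBXO4 and FBXO31, both linked to cyclin D1 turnover, had log2 ratios of -0.04 (372 and 397 counts) and 0.33 (616 and 844 counts).

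FBXL7 was the lower member outside that list. Its product has been linked to degradation of the mitotic kinase Aurora A. It had 1026 counts (36.7 CPM) with glucose and 423 (13.8 CPM) without, 2.65-fold lower (interval 2.37 to 2.98), and all 4 of its exons had more than 10 reads in both libraries. It spans bases 15500305 to 15939900 of chromosome 5 (hg19, plus strand). FBXL18, at 1932 and 1008 counts (69.0 and 32.9 CPM, log2 ratio -1.07), was next, with an interval from -1.18 to -0.96 that reached inside 2-fold, and it passed the rule with scaling by total counts. FBXL19 (-0.89), FBXO46 (-0.85) and FBXL17 (-0.78) followed, each with an interval wholly past 1.5-fold lower but not past 2-fold.

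**Figure D2:**
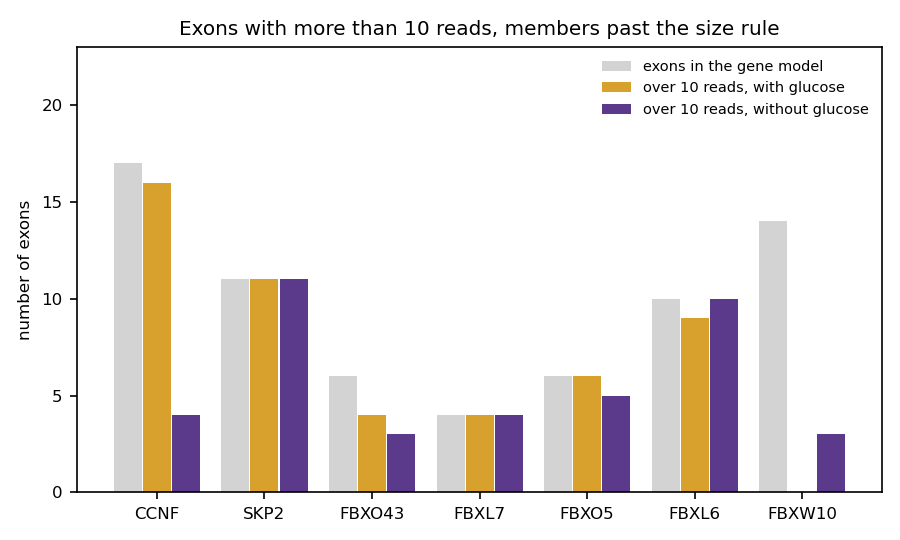
Number of exons in the gene model (grey) and number of exons with more than 10 reads with glucose (yellow) and without (purple) for the 7 genes past the size rule, 1 library per group. CCNF went from 16 to 4 of 17 exons and FBXW10 from 0 to 3 of 14, while SKP2 and FBXL7 had the same number in both. The number past 10 reads depends on the total count of each gene.

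FBXL6 and FBXW10 were the higher members. FBXL6, a leucine-rich repeat receptor, had 584 counts (20.9 CPM) with glucose and 1926 (62.9 CPM) without, 3.02-fold higher (interval 2.75 to 3.31), with more than 10 reads on 9 and 10 of its 10 exons. On chromosome 8 of hg19 (145579091 to 145582132, minus strand) it begins 92 bases from GPR172A, a riboflavin transporter gene on the other strand, which had 1666 and 3996 counts (59.5 and 131 CPM, log2 ratio 1.13). The use of strand in counting is not given, and whether the neighbour's reads have a part in the value was not tested.

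FBXW10 had 2 counts with glucose and 107 (3.50 CPM) without, a ratio of 48.9 with a counting interval from 13.2 to 409. More than 10 reads fell on 0 of its 14 exons with glucose and on 3 without. It spans bases 18647326 to 18682662 of chromosome 17 (plus strand) and begins 7894 bases after the end of TRIM16L, which had 576 and 936 counts (log2 ratio 0.57). Its paralog CDRT1 had 23 and 145 counts (2.53), and reads of such a pair could be shared between copies, so that the value of FBXW10 as a single gene is uncertain. With 1 CPM added to both libraries its log2 ratio was 2.07.

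The core of the ligase differed little between the libraries. SKP1 had 3376 counts (121 CPM) with glucose and 4033 (132 CPM) without (0.13 on the log2 scale, interval 0.06 to 0.19). CUL1 had 2166 and 2236 counts (77.4 and 73.1 CPM, -0.08, interval -0.17 to 0.00), with more than 10 reads on all 22 exons in both. RBX1 had 1461 and 1466 counts (52.2 and 47.9 CPM, -0.12, interval -0.23 to -0.02), and with the median of its length class subtracted the value was -0.44. The ratio of SKP2 to SKP1, each as CPM per kilobase of gene model, was 1.22 with glucose and 0.291 without.

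Of the 5 receptors listed as sugar-binding, 4 were measured and 0 passed the rule. Some of this group, but not all, recognise N-glycans of glycoproteins and have been linked to disposal of misfolded ones. FBXO27 had 270 counts (9.65 CPM) with glucose and 654 (21.4 CPM) without, which gave 1.15 on the log2 scale with an interval (0.94 to 1.36) that reached just inside 2-fold, and 3 and 5 of its 6 exons had more than 10 reads. FBXO17 had 706 and 668 counts (-0.21) and FBXO44 143 and 99 counts (-0.66). FBXO6 had 21 and 29 counts (0.34), with an interval from -0.52 to 1.22 that reached beyond 2-fold on the upper side. FBXO2, the brain-enriched member, had 14 counts with glucose and 1 without and was not measured. FBXO2 and FBXO44 overlap on opposite strands at bases 11714432 to 11714739 of chromosome 1. Only reads within that stretch cannot be told apart without strand. The median of the 4 measured genes was 0.06, and turned to -0.01 with scaling by total counts and to -0.21 with at least 1 or at least 100 counts. ER stress markers, of which 5 of 6 were higher without glucose (3.91% of all measured genes), stood at 753 and 10139 CPM for the chaperone HSPA5. SEL1L, a subunit of the membrane ligase that discards misfolded glycoproteins, stood at 220 and 839 CPM. A link of these values to those of the receptors was not tested.

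The receptors linked to iron and mitochondria were within 2-fold. FBXL5 binds iron and oxygen in a hemerythrin domain and acts on the iron regulatory protein IRP2. It had 2504 counts (89.5 CPM) with glucose and 3214 (105 CPM) without (0.23), and IREB2, the gene of IRP2, was at -0.08 and passed neither bound. FBXL4, a mitochondrial protein needed to maintain mitochondrial DNA, had 1156 and 1383 counts (0.13). FBXO7, linked to removal of damaged mitochondria and to a form of parkinsonism, had 3231 and 4954 counts (115 and 162 CPM, 0.49, interval 0.42 to 0.55).

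Of the genes linked to muscle atrophy 4 were measured, with 0 past the rule and a median log2 ratio of 0.31. Their ratios lay above 0, as did those of 7382 of the 14240 genes measured in the tables. FBXO32, known as atrogin-1 and induced by FOXO factors in wasting muscle, had 229 counts (8.18 CPM) with glucose and 342 (11.2 CPM) without (0.45, interval 0.20 to 0.70). Its paralog FBXO25 had 286 and 647 counts (10.2 and 21.1 CPM, 1.05, interval 0.85 to 1.25). FBXO30, or MUSA1, had 2012 and 2464 counts (0.16), and FBXO21 had 1800 and 2052 counts (0.06, or -0.01 with scaling by total counts). FBXO40, a muscle gene, had 14 and 2 counts and was not measured.

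By subfamily, the median log2 ratio was 0.13 for 16 measured FBXL genes, 0.06 for 32 FBXO genes and 0.45 for 8 FBXW genes, and that of the FBXO genes turned to -0.01 with scaling by total counts and to -0.04 with at least 1 count. FBXW5 had 1676 counts (59.9 CPM) with glucose and 3224 (105 CPM) without (0.81, interval 0.73 to 0.90), a value wholly above 1.5-fold but within 2-fold. FBXW4 (441 and 699 counts, 0.54), FBXW9 (343 and 520 counts, 0.47) and FBXW8, the partner of the cullin CUL7 (1138 and 1666 counts, 0.42), lay between 0.4 and 0.6. FBXW2, the most counted member of the whole set with glucose at 4907 counts, had 4351 without (-0.30).

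Levels of different genes were compared as CPM per kilobase of gene model. RBX1 (58.0), SKP2 (54.7), FBXO7 (50.1) and SKP1 (44.8) had the highest levels with glucose, and FBXO7 (70.2), RBX1 (53.2), SKP1 (48.9) and FBXW5 (45.1) without. Among the 62 measured genes SKP2 went from rank 2 to rank 18, FBXO5 from 5 to 23 and CCNF from 28 to 52, while FBXL6 went from 22 to 5. The median level of the measured members was 7.60 with glucose and 8.17 without, beside 8.51 and 8.46 for all measured genes.

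Within the subfamilies the order at the top was partly kept. FBXL5 led the FBXL genes with glucose at 24.6 CPM per kilobase, ahead of FBXL4 (14.9), and without glucose FBXL6 (36.3) stood above FBXL5 (28.9) and FBXL4 (16.3). The lowest measured FBXL genes in both libraries were FBXL8, FBXL13 and FBXL16, between 0.0505 and 0.694 CPM per kilobase. FBXO7, FBXO5 (28.3) and FBXO18 (27.9), the last a DNA helicase with an F-box, led the FBXO genes with glucose, and FBXO7, FBXO18 (26.7) and FBXO38 (21.6) without. The lowest were FBXO44 (1.45), FBXO15 (0.583) and FBXO6 (0.486) with glucose, and FBXO43 (0.782), FBXO6 (0.614) and FBXO15 (0.426) without. FBXW5 (25.6 and 45.1), FBXW11 (19.3 and 20.7) and FBXW2 (19.1 and 15.5) were the highest FBXW genes in both libraries, and FBXW9, FBXW7 and FBXW10 the lowest.

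**Figure D3:**
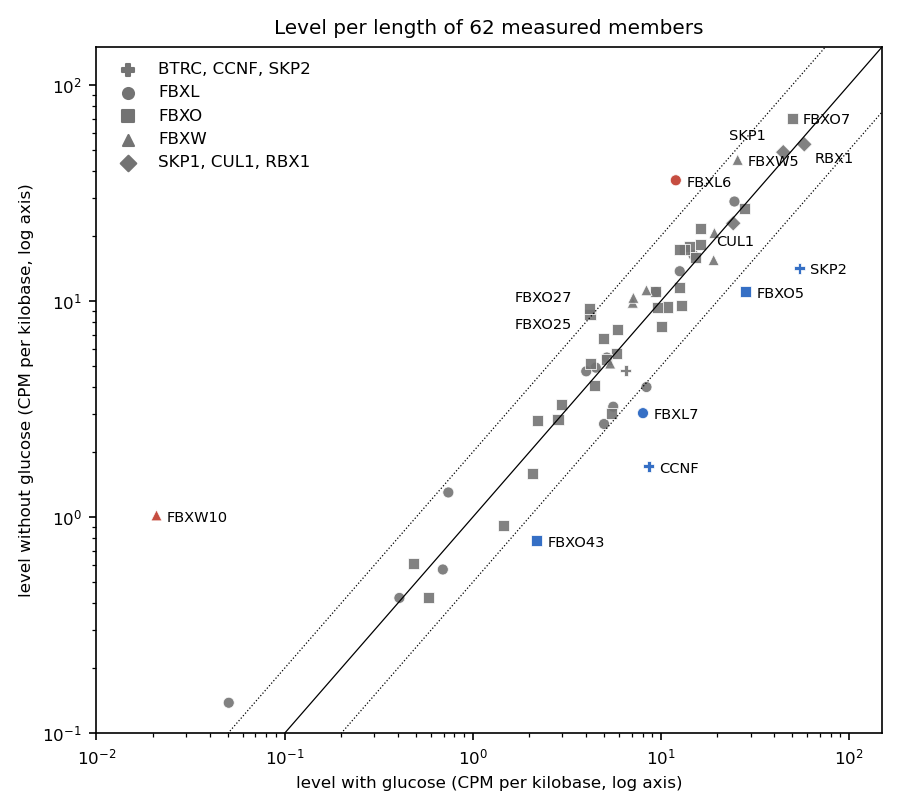
Level of the 62 measured genes with glucose (x axis) and without (y axis), both in CPM per kilobase of gene model on log axes, 1 library per group. The solid line marks equal levels and the dotted lines 2-fold; red genes are higher and blue genes lower by the size rule. SKP1, CUL1 and RBX1 lie near the solid line, and SKP2 and FBXO5 are the most abundant genes below the lower dotted line.

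The 8 genes that were not measured had at most 14 counts in either library. Beside FBXO2 and FBXO40, these were FBXL21 (1 count with glucose and 0 without), FBXL22 (6 counts with glucose and 4 without), FBXO24 (4 and 3), FBXO39 (3 and 0), FBXO47 (1 and 1) and FBXW12 (1 and 3). A count of 0 allows up to 3 counts, so that their absence is not shown at this depth. Of the 603 exons of the measured members, 471 had more than 10 reads with glucose and 465 without, with more such exons without glucose in 17 genes, fewer in 11 and the same number in 34.

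Overlap with another gene model was found for 10 of the 70 genes. For most of them the other gene had few counts, but FBXO11 (1082 and 1401 counts, 0.24) meets MSH6 on the other strand at its end (5455 and 3372 counts), and FBXO8 (302 and 403 counts, 0.29) meets KIAA1712 at its start (569 and 471 counts). In both pairs the log2 ratio of the neighbour was below 0 and that of the F-box gene above 0. FBXL8 (31 and 28 counts) shares its 3′ end with HSF4 on the same strand (48 and 38 counts).

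The machinery around the receptors was mostly within 2-fold. Of 11 other cullins, RING proteins and adaptors, 0 passed the rule and the median was 0.20, with CUL7 at 53.1 and 85.0 CPM (0.68), RNF7, the relative of RBX1, at 0.42, CUL3 at 0.37 and CUL5 at 0.34. None of the 9 genes of the COP9 signalosome, which removes NEDD8 from cullins, passed the rule, and their median was 0.09. Of these COPS7A had 59.0 and 93.9 CPM (0.67), and COPS8 (0.49), COPS6 (0.38) and COPS2 (0.36) followed. Of 13 measured genes of NEDD8 attachment and cullin exchange, 0 passed the rule with a median of -0.14. NEDD8 itself, the ubiquitin-like protein that activates cullins, had 87.3 and 47.2 CPM (-0.89), DCUN1D4 -0.90, SENP8 0.84 and the E2 enzyme gene UBE2F 0.75.

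Of 11 E2 enzymes and cofactors, 1 was lower and 0 higher, with a median of -0.04. Of all measured genes, 6.05% were lower and 3.91% higher. The lower gene was CKS2 (48.6 and 21.7 CPM, -1.16), while its paralog CKS1B, the cofactor SKP2 needs to bind p27, had 367 and 378 counts (-0.09). UBE2D4 (1.02), CDC34, an E2 enzyme of SCF ligases (0.52), and UBE2G1 (-0.45) had the next largest ratios. Of 6 F-box genes listed under other symbols, 4 were measured and 0 passed the rule with a median of -0.34. The histone demethylase genes KDM2A and KDM2B both stood at -0.34, LMO7 at -1.01 and LRRC29 at 1.07.

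Among 26 listed substrates of SCF ligases, all measured, the median was -0.26, and 2 were higher and 6 lower. Of all measured genes, 3.91% were higher and 6.05% lower. The list was drawn up with earlier results of these data known, so these counts are not a test of it. The higher ones were 2 CDK inhibitor genes whose products are substrates of SKP2. They were CDKN1C, the p57 gene (60 and 585 counts, 2.14 and 19.1 CPM, 3.16), and CDKN1A, the p21 gene (65.2 and 234 CPM, 1.84). CDKN1B, the gene of the SKP2 substrate p27, went the other way (58.6 and 39.9 CPM, -0.55) and passed neither bound. The lower ones were the checkpoint mediator CLSPN (-1.88), the CDK phosphatase CDC25A (-1.71), RRM2 (-1.64), NFKBIA (-1.61), CCNE2 (-1.40) and WEE1 (-1.22). Transcript counts carry no measure of the degradation of these proteins.

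**Figure D4:**
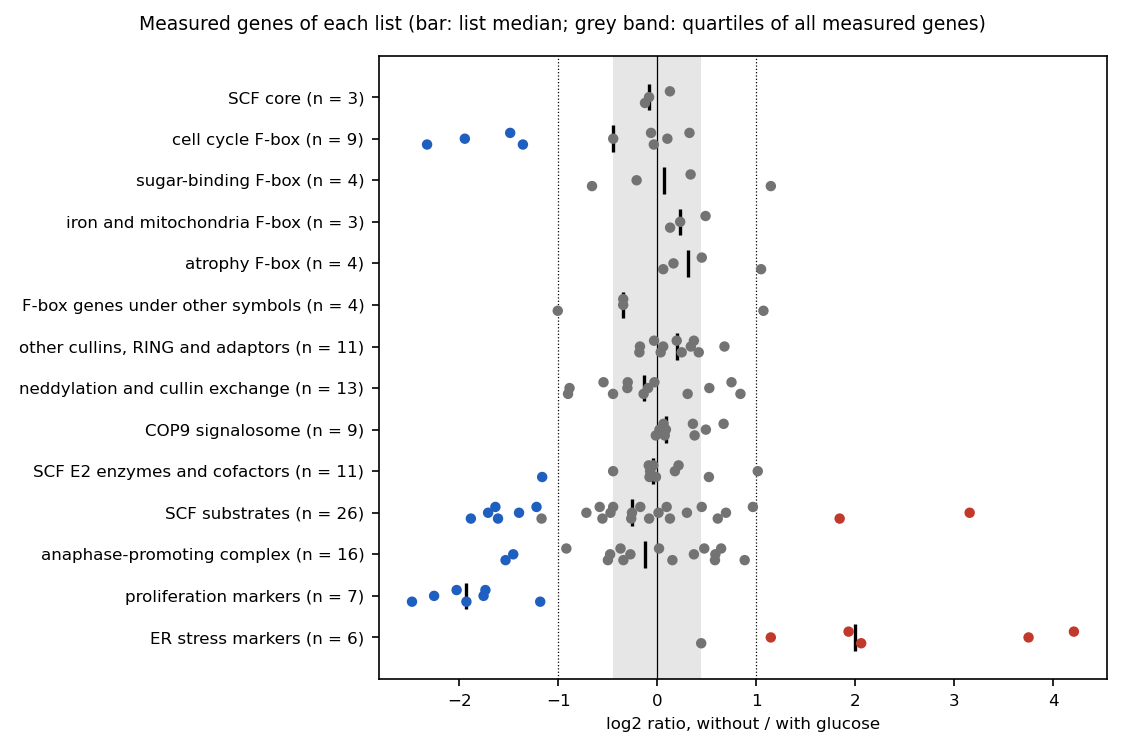
Log2 ratio without glucose against with glucose for the measured genes of each list (points; red higher and blue lower by the size rule; black bar, list median; grey band, quartiles of all measured genes; dotted lines, 2-fold), 1 library per group. The cell cycle F-box genes separate into 4 lower genes and 5 within 2-fold, and the lists of cullins, NEDD8 genes and COP9 subunits lie between the dotted lines.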

How the data were processed

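RNA-seq libraries from 2 cultures of 786-O cells were analysed, grouped by the glucose content in the sample titles, with 1 library per group. The deposited tables gave raw counts per RefSeq gene model and RPKM (reads per kilobase and per 1000000 reads), per the file headers. Per the submitters' processing notes, reads were placed on hg19. The sources used here do not give the aligner, the counting program or the use of strand. RPKM was not used in any comparison. Rows that repeated the place, length and both counts of another symbol (528 of 24364) were removed, and the counts of each symbol were then added up. Effective library sizes came from TMM (edgeR 4.0.16, R 4.3.3) on all symbols, with factors of 1.02 with glucose and 0.976 without. Counts, levels and exact intervals were computed in Python 3.11.15 (scipy 1.17.1, pandas 2.3.3, numpy 2.4.6), and figures with matplotlib 3.10.9. DESeq2 1.42.0 size factors served as an alternative. Depth limits the intervals: the median member had 1526 counts over both libraries.

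The values of 1 measured member are not reported here. The members and the lists were chosen with earlier results of these data known. All members may be named, with full values for the SCF core, members past the size rule and those of the role lists, and other pathway genes by up to 4 per list with the largest ratio. Data were simulated for this comparison (14240 genes) with Poisson counting error only. In them, 46 of 50 genes with a 4-fold change and 2 of 49 with a 2-fold change were called. Of the intervals, 95.4% held the true ratio. The simulation held no difference between cultures of the same group, so it cannot show how often such differences would lead to a call.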

Additional observations from a re-analysis of the deposited data

How the results depend on the processing

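No paired analysis was possible because there was only 1 library per group, and for the same reason no replicate could be left out. The numbers of higher and lower members depended on the size asked for: with intervals beyond 1.5-fold 5 were higher and 9 lower (10.6% and 12.2% of all measured genes), and with intervals beyond no difference 27 were higher and 17 lower (38.2% and 35.9%). With the bound kept at 2-fold, the 2 higher members were FBXL6 and FBXW10 under each other scaling, count minimum, choice of rows and length correction, and the lower ones were joined by FBXL18 with scaling by total counts and by FBXO2 (14 counts and 1) with at least 1 count. The setting with TMM on measured symbols alone was chosen after seeing the data. The median of the members lay between 0.02 with scaling by total counts and 0.12 with DESeq2 size factors, and that of all measured genes was -0.04 and 0.05 there. Of 496 ratios of single members under 8 settings, 20 left their counting interval, most of them with the median of the length class subtracted, and no called member changed its sign. All measured genes had a median of 0.32 in the shortest of 10 length classes and -0.20 in the longest.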
